A study of Mus musculus with 8 samples.

Results

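The genes described here are 103 transcription factor genes of 14 homeobox and paired-box families, chosen by symbol from the 23699 entries of each deposited table: all 39 Hox genes, and the Pax, Lhx (numbers 2 to 9), sine oculis, Irx, Dlx, Msx, Meis, Pbx, Nkx, Emx, Cdx, Tgif and Hesx1 genes. Their expression was read in 8 RNA-seq libraries of mouse pluripotent cells, made from polyadenylated RNA. The epiblast stem cells (mEpiSC), primed cells of the post-implantation epiblast grown with FGF2, came from the lines EpiSC5 (mEpiSC 1), EpiSC7 (mEpiSC 2 and 3) and EpiSC9 (mEpiSC 4). The embryonic stem cells (mESC), naive cells grown with LIF, came from the lines ESF122 (mESC 1 and 2) and ESF175/1 (mESC 3 and 4). No genetic change is named for any line. All were grown in Knockout DMEM with serum replacement on irradiated mouse embryonic fibroblasts and were separated from that layer before lysis, mESC being passaged as single cells and mEpiSC as clumps. Whether a line's libraries were separate cultures is not stated, so the p-values speak only to how libraries vary, and that variation may be technical.

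A homeodomain is a helix-turn-helix fold that binds short AT-rich DNA sites, and a Pax protein binds through a paired domain, with or without a homeodomain. The Hox genes lie in 4 clusters, and along each cluster the genes of low paralog number are switched on first and most anteriorly in the embryo, those of high number later and more posteriorly. Pbx and Meis proteins, homeodomain factors of the TALE class, bind DNA together with Hox proteins. Most of the other families pattern the brain, sense organs, somites, gut or limbs after gastrulation, and their promoters in pluripotent cells are known as targets of Polycomb repression.

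Levels are the deposited FPKM, that is fragments of a gene divided by transcript length and by the fragments mapped in the library. Every difference is the mEpiSC mean of log2(FPKM + 1) less the mESC mean, a scale on which low genes appear to change less than they do. The libraries implied 24800000 to 38600000 fragments each. Of 9 naive markers 9 were lower in mEpiSC, and of 8 primed markers 6 were higher and none lower. The naive markers Zfp42, Tbx3, Dppa3 and Prdm14 reached 1 FPKM only in mESC, so once tested they had to differ. On the second principal component of all tested genes both replicate 4 libraries stood apart, at −48.9 for mEpiSC 4 and −33.5 for mESC 4 against 8.8 to 20.6 in the other 6. Summed FPKM of 18 fibroblast markers was 587.2, 321.5, 196.7 and 83.4 in mEpiSC 1 to 4, and 311.1, 43.7, 60.7 and 8.60 in mESC 1 to 4. In bulk RNA, fewer cells of a type and less RNA per cell cannot be told apart.

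Most of these genes were silent in both states. By the rule used here, a gene under 1 FPKM in all 8 libraries was called silent, and a gene at 1 FPKM or more in at least 3 of the 4 libraries of a state was called expressed there. Silent genes numbered 67 of 103 (65.0%), against 9956 of all 22987 genes listed at a single locus (43.3%). Only 8 of the 103 were expressed in both states (7.77%, against 44.4% of all genes), while 14 were expressed in mEpiSC alone (13.6%, against 4.32%). In mESC alone 3 were expressed, namely Nkx1-2, Nkx2-9 and Nkx6-2 (2.91%, against 2.77%). Alone here means only that the other state did not meet the rule. All 3 also reached 1 FPKM in some mEpiSC libraries. Mean FPKM was higher in mEpiSC for Nkx2-9 (2.10 against 1.17) and Nkx6-2 (2.70 against 1.10). The count in mESC alone was 0 without mEpiSC 1, 1 without mEpiSC 2, and 7, 6 and 5 without mESC 1, 3 and 4. With a library left out, the rule asked for all but 1 of the libraries left in its state, a looser bar. The part of that looser bar in these changes was not tested. The remaining 11 reached 1 FPKM in some libraries without meeting the rule in either state. These shares describe a set of genes picked by name and carry no test.

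**Figure D1:**
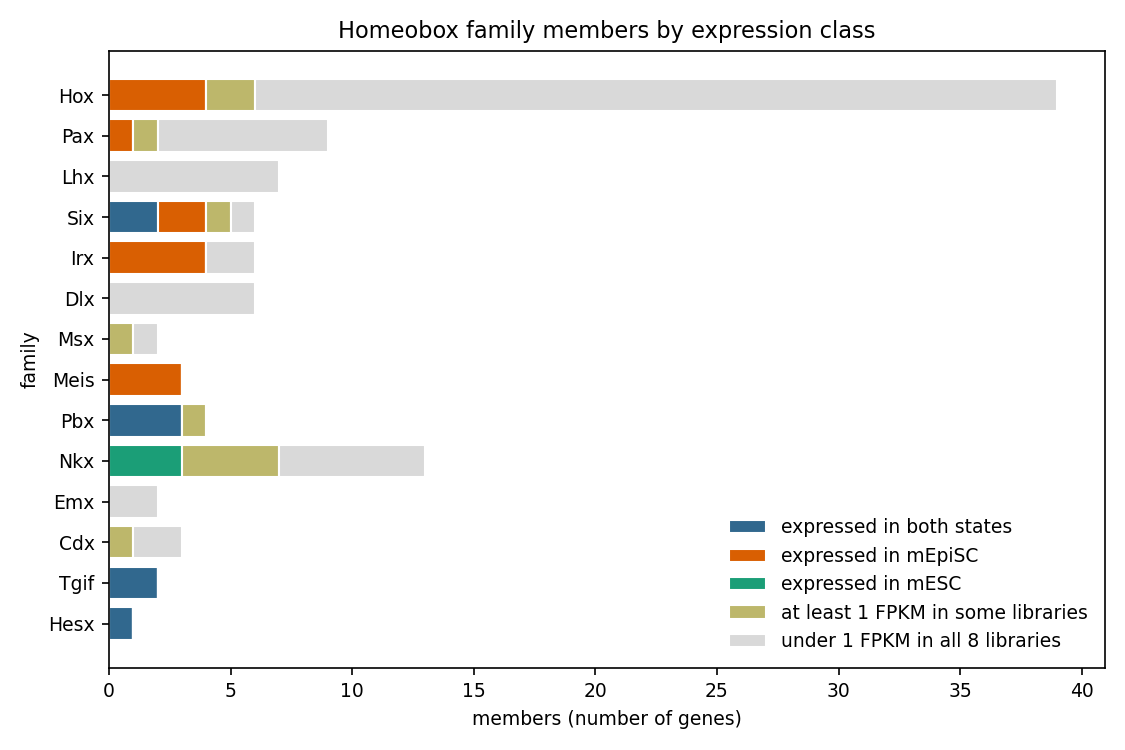
Number of genes of each family (x axis, genes; y axis, family) by expression class in 4 mEpiSC and 4 mESC libraries. Hox, Lhx and Dlx genes are mostly grey (under 1 FPKM in all 8 libraries), the 3 Meis genes are all expressed in mEpiSC alone, and no Pbx or Tgif gene is silent.

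All 7 Lhx genes chosen (Lhx2 to Lhx9, which leaves out Lhx1), LIM-homeodomain factors of neurons and limb, all 6 Dlx genes, which pattern forebrain and jaw, and both Emx genes, of the dorsal forebrain, were silent. The highest level among them was 0.692 FPKM, for Dlx3 in mESC 1. Lhx5 was the highest of those 7, at 0.650 FPKM. Silent genes made up 33 of 39 in the Hox family, 7 of 9 in Pax, 6 of 13 in Nkx, 2 of 3 in Cdx, 2 of 6 in Irx, 1 of 6 in the sine oculis family and 1 of 2 in Msx. No Meis, Pbx or Tgif gene was silent.

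Silent did not always mean without reads. Of the 67 silent genes, 15 stayed under 0.1 FPKM in every library and 14 had a highest value of 0.5 FPKM or more. Pax4, a factor of pancreatic endocrine cells, was listed at 0 in all 8 libraries. Nearest to the level of 1 FPKM were, on the silent side, Hoxd13 (0.956 in mESC 1), Hoxa5 (0.940 in mESC 4), Pax8 (0.887 in mESC 4) and Hoxb9 (0.885 in mEpiSC 4). On the other side were Nkx2-4 (1.11 in mESC 4), Hoxa3 (1.28 in mEpiSC 3), Msx1 (1.33 in mEpiSC 1) and Pbx4 (1.39 in mESC 2). The 0.956 FPKM of Hoxd13 rested on about 92 fragments by the width of its deposited interval.

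The test between states covered 11556 genes that reached 1 FPKM in 4 or more libraries, and 21 of the 103 were among them. Across all genes tested, 37.3% passed (limma, Benjamini-Hochberg adjusted p under 0.05), 23.1% higher and 14.2% lower in mEpiSC. That balance depends on the scaling: 2665 genes were higher and 1640 lower as deposited, against 2140 and 2348 with median ratio scaling and 2187 and 2211 with quantile normalization, while among the 103 genes 9 were higher and 2 lower with each. Among the 21, 9 were higher, 2 were lower and 10 did not pass, and the median difference was 1.00 against 0.083 over all genes tested. Irx5 and Pax3 entered the test only through mEpiSC, at 1 FPKM or more in all 4 of those libraries and in no mESC library, so they had to differ and these counts support nothing by themselves. Values of the states did not overlap for 10 of the 21, against 37.1% of all genes tested. The genes higher in mEpiSC included Irx3, Irx5, Meis2, Meis3, Pax3, Pbx2, Pbx3 and Six5, and those lower there included Six4.

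**Figure D2:**
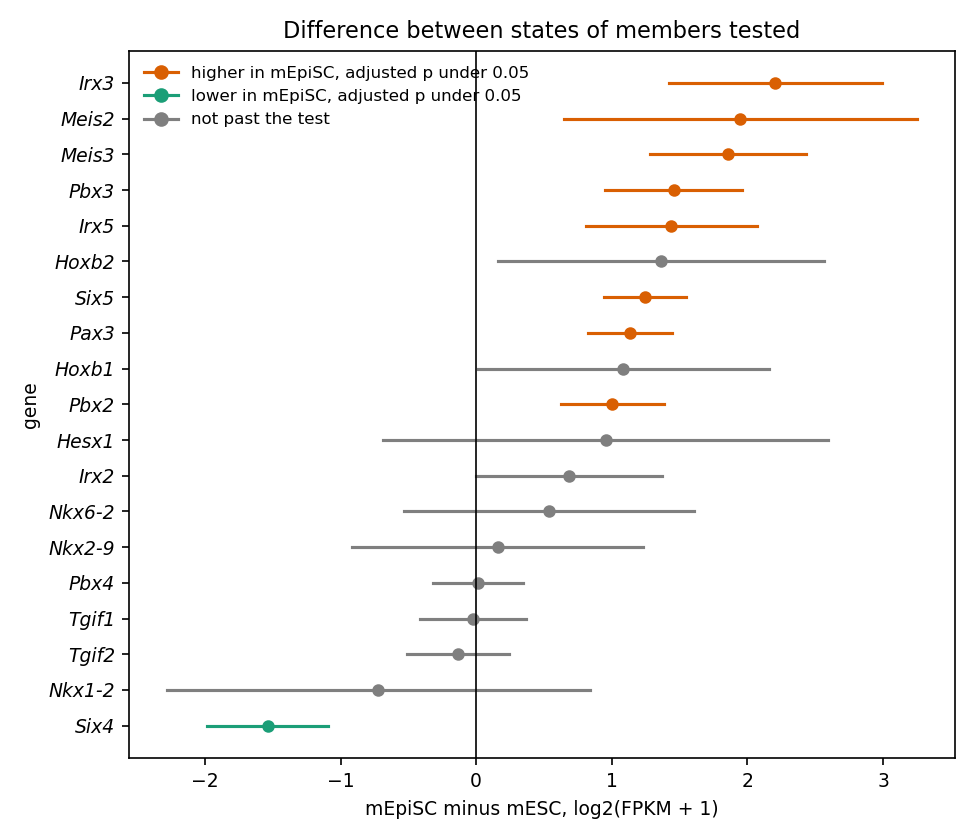
Difference between mEpiSC and mESC on the log2(FPKM + 1) scale (x axis) for genes that were tested (y axis); points are limma estimates from 4 libraries per state and lines their 95% intervals. The genes higher in mEpiSC lie between 1.00 (Pbx2) and 2.21 (Irx3), Six4 lies at −1.54, and the intervals of the 10 grey genes did not lead to a call.

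Among the genes of highest mean level over the 8 libraries were Tgif1, Pbx2, Tgif2 and Pbx3, all of the TALE class, and Pbx2 and Pbx3, partners of Hox proteins, rose in mEpiSC. Pbx2 measured 39.0, 37.4, 43.0 and 43.7 FPKM in mEpiSC, against 19.1, 25.3, 14.3 and 22.1 FPKM in mESC (difference 1.00, SE 0.17; limma, Benjamini-Hochberg adjusted p = 0.0021). Pbx3 measured 12.6, 18.4, 20.3 and 18.8 FPKM in mEpiSC, against 4.95, 8.92, 4.22 and 5.42 FPKM in mESC (1.46, SE 0.22; adjusted p = 0.0014). Neither gene had overlapping states. Pbx4 averaged 1.04 ± 0.154 FPKM in mEpiSC and 1.03 ± 0.284 FPKM in mESC (SD, n = 4 each), and its difference of 0.013 had a 95% interval of −0.32 to 0.34.

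The Meis genes, whose proteins bind both Pbx and Hox partners, met the rule for expression in mEpiSC alone, and the 2 that could be tested rose there. Meis3 measured 6.52, 7.27, 7.86 and 5.58 FPKM in mEpiSC, against 0.935, 2.66, 0.646 and 0.807 FPKM in mESC. The states did not overlap, and the difference was 1.86 (SE 0.25; limma, adjusted p = 8.8e-04). Meis2 measured 2.61, 8.53, 11.97 and 12.6 FPKM in mEpiSC, against 0.374, 5.81, 0.515 and 0.927 FPKM in mESC. Here the states overlapped, because mESC 2 stood above mEpiSC 1, and the call (1.95, SE 0.58; adjusted p = 0.027) was lost in several settings. Without any 1 of mEpiSC 2, 3 and 4 or mESC 1, 3 and 4 its adjusted p was 0.056 to 0.078, and it was 0.10 when lines entered as a random block. Meis1 reached 1 FPKM in 3 libraries only and was not tested. It measured 0.910, 4.02, 6.48 and 3.12 FPKM in mEpiSC, against 0.317, 0.388, 0.287 and 0.391 FPKM in mESC, with no overlap; 12.9% of the 50-base windows of its transcripts also occur in other genes.

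The Tgif genes, TALE-class repressors that bind Smad proteins of TGF-beta signalling, differed little between states. Tgif1 measured 60.5, 56.0, 60.3 and 42.3 FPKM in mEpiSC, against 48.9, 44.8, 63.0 and 66.8 FPKM in mESC, the highest of the 103 genes in every library but mEpiSC 4, where Pbx2 was higher. Its difference was −0.023, with a 95% interval of −0.41 to 0.37, and the sign turned under several other settings. Tgif2 averaged 20.0 ± 3.93 FPKM in mEpiSC and 21.9 ± 3.31 FPKM in mESC (SD, n = 4 each), a difference of −0.14 with an interval of −0.51 to 0.24; 23.7% of its windows occur in other genes, so its level is uncertain. In the list of other homeobox genes, Pknox2, a further TALE gene, averaged 4.80 ± 1.53 FPKM in mEpiSC and 0.754 ± 0.271 FPKM in mESC (1.70, SE 0.21; adjusted p = 5.9e-04). Pknox1 averaged 4.81 ± 0.554 FPKM in mEpiSC and 7.12 ± 0.371 FPKM in mESC (−0.49, SE 0.12; adjusted p = 0.013).

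**Figure D3:**
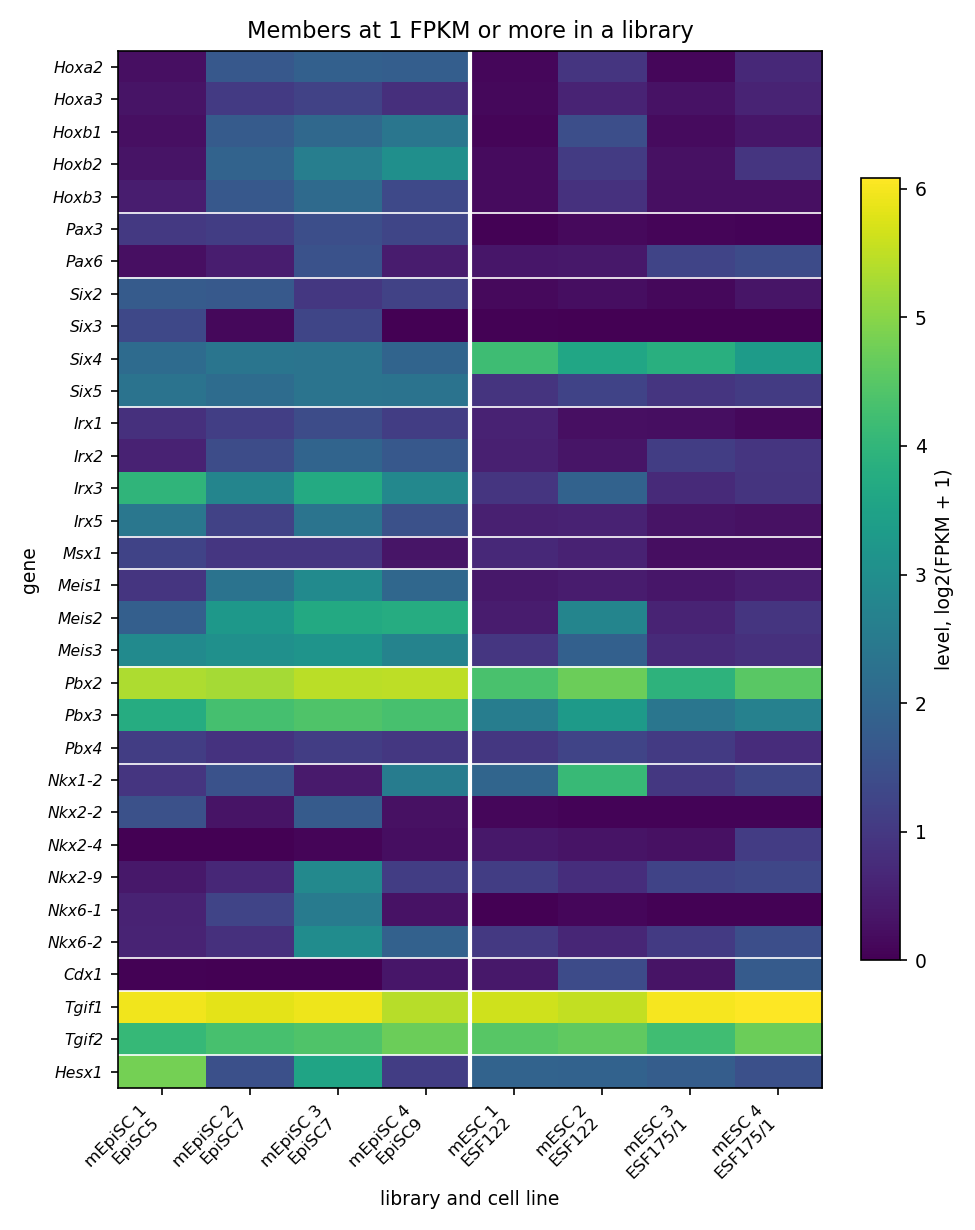
Level of 32 genes that reached 1 FPKM in at least 1 library (rows, grouped by family) in each library (columns, with the cell line; mEpiSC left, mESC right), as log2(FPKM + 1). Pbx and Meis rows are brighter in mEpiSC, Six4 in mESC, Tgif rows are even, and many Hox and Nkx rows are bright in single libraries.

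Among the Hox genes, what could be seen lay at the early end of clusters A and B. The clusters are at chromosome 6, 52105366 to 52210874 (A, 11 genes), chromosome 11, 96055675 to 96229567 (B, 10 genes), chromosome 15, 102751562 to 102867283 (C, 9 genes), and chromosome 2, 74506367 to 74603199 (D, 9 genes), in mm9. Hoxa2, Hoxa3, Hoxb1, Hoxb2 and Hoxb3, of paralog groups 1 to 3, reached 1 FPKM. None of the 15 genes of groups 4 to 8 and none of the 16 of groups 9 to 13 reached it. The 2 genes of groups 1 to 3 in cluster D, Hoxd1 and Hoxd3, stayed at or below 0.338 FPKM. Cluster C has no gene of groups 1 to 3, and its highest value was 0.706 FPKM, for Hoxc6.

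Hoxb1, the first of its cluster to be switched on in the hindbrain, measured 0.193, 2.38, 3.12 and 4.21 FPKM in mEpiSC 1 to 4, and 0.0556, 1.75, 0.138 and 0.295 FPKM in mESC 1 to 4. Hoxb2 measured 0.249, 2.81, 5.10 and 7.21 FPKM in mEpiSC, against 0.125, 1.09, 0.212 and 0.907 FPKM in mESC. Hoxb3 measured 0.411, 2.20, 3.30 and 1.53 FPKM in mEpiSC, against 0.131, 0.832, 0.190 and 0.182 FPKM in mESC. In all 3 genes EpiSC7 and EpiSC9 were high, EpiSC5 lay among the mESC libraries, and mESC 2 was the highest of the mESC. With EpiSC5 included neither tested gene passed: Hoxb1 differed by 1.08 (SE 0.47; limma, adjusted p = 0.10) and Hoxb2 by 1.36 (SE 0.53; adjusted p = 0.072). EpiSC5 was the lowest mEpiSC in both, so leaving it out had to widen the differences. They were then 1.54 and 1.91 (limma, adjusted p = 0.013 and 0.0045). Hoxb2 also passed with the replicate number as a block (adjusted p = 0.032). Both passed with 1 mean per line (limma, adjusted p = 0.031 for Hoxb1 and 0.0091 for Hoxb2). The error of that fit is the spread of libraries within lines and leaves out the spread between lines. Both also passed with the fibroblast marker level as a covariate (0.040 and 0.014). Neither passed with lines as a random block (0.24 and 0.17) or with voom on implied fragments (0.21 for both). Without mESC 1, 3 or 4 neither passed (0.18 to 0.22 for Hoxb1 and 0.097 to 0.16 for Hoxb2). The same held with median ratio scaling, quantile normalization and pseudocounts of 0.1 and 5. Without mEpiSC 2, 3 or 4 or mESC 2 neither gene was tested.

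In cluster A, Hoxa2, which sets the identity of the second branchial arch, measured 0.198, 2.21, 2.64 and 2.50 FPKM in mEpiSC, against 0.0698, 0.918, 0.0857 and 0.626 FPKM in mESC. Hoxa3 reached 1.05 and 1.28 FPKM in the libraries of EpiSC7 and at most 0.758 FPKM elsewhere. Hoxa2 was thus high in EpiSC7 and EpiSC9 and low in EpiSC5. Neither gene was tested. The interval listed for Hoxa3 overlaps Hoxa4, Hoxa5 and Hoxa6, and 12.7% of the windows of Hoxa2 and 8.14% of those of Hoxa3 occur in other genes, so reads here may be shared.

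Summed over the 3 genes of groups 1 to 3 in cluster B, the level was 0.852, 7.38, 11.5 and 12.9 FPKM in mEpiSC 1 to 4, and 0.312, 3.67, 0.540 and 1.38 FPKM in mESC 1 to 4. The 16 genes of groups 9 to 13 summed to 4.19, 2.41, 0.638 and 1.52 FPKM in mEpiSC, against 3.08, 1.20, 1.82 and 2.67 FPKM in mESC. So EpiSC5 held the lowest of the mEpiSC sums over early cluster B genes and the highest over late Hox genes. The fibroblast markers were also highest in mEpiSC 1 and, of the mESC libraries, in mESC 1. Hoxc6 measured 0.706, 0.300, 0.117 and 0.197 FPKM in mEpiSC, against 0.457, 0.0430, 0.0310 and 0.0179 FPKM in mESC, and was likewise highest in those 2 libraries. The part of fibroblast RNA in these low Hox levels was not tested.

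**Figure D4:**
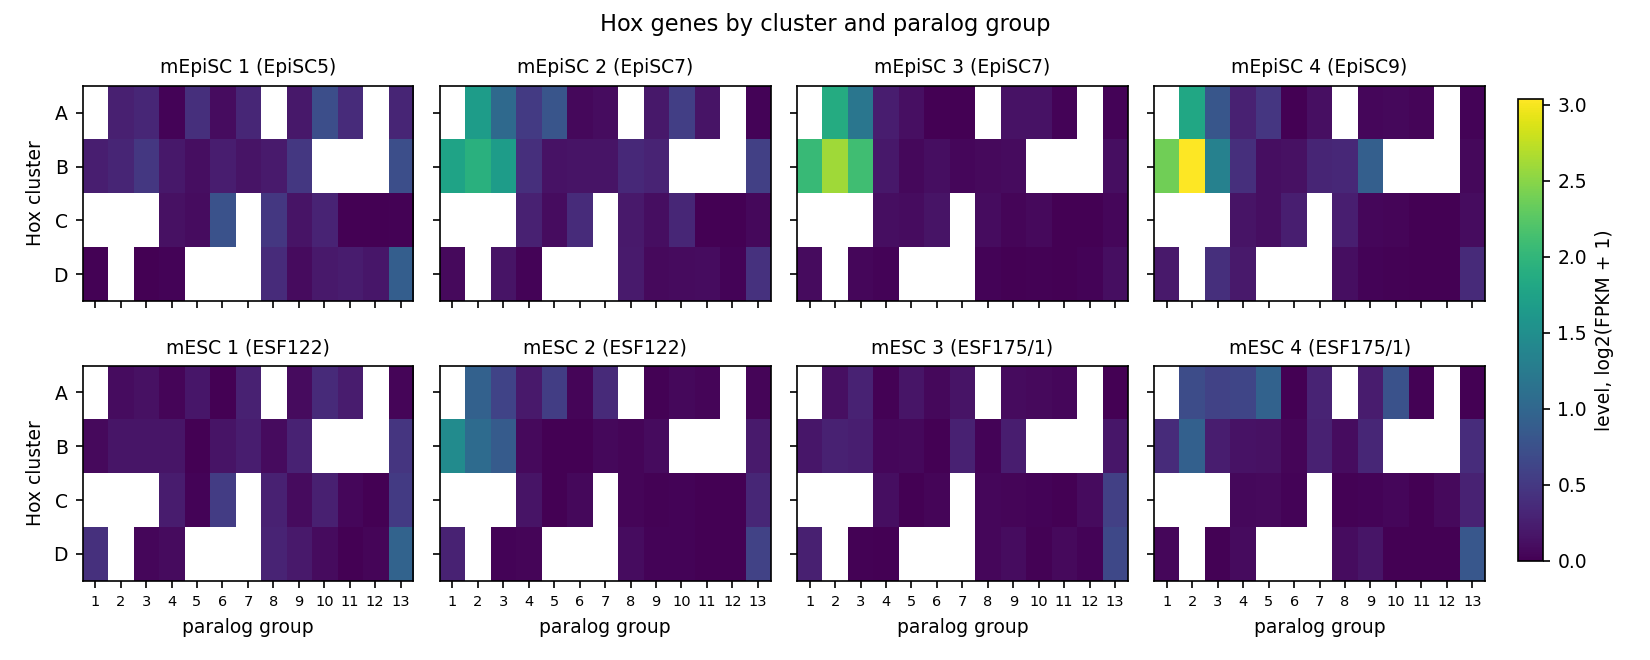
Level of each Hox gene, as log2(FPKM + 1), by cluster (y axis, A to D) and paralog group (x axis, 1 to 13) in each library; mEpiSC are in the upper row, mESC in the lower, and white cells are positions without a gene or not shown. Bright cells lie at groups 2 and 3 of cluster A and 1 to 3 of cluster B in mEpiSC 2, 3 and 4 and, less bright, in mESC 2, while mEpiSC 1 is dark there.

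Promoter sequence was read for the 69 of the 103 genes that a RefSeq table of GRCm38.p6 holds, over 300 bases from 250 before to 50 after the first listed start site. Those promoters held a median of 17 CG dinucleotides (quartiles 12 and 25), against 7 (3 and 21) over the 27025 genes of the table. The median was 15.5 for 44 silent genes, 15 for 9 genes expressed in mEpiSC alone and 20 for 5 genes expressed in both states. At least 10 were found in 55 of the 69 (79.7%), against 43.9% of all genes. Six4 fell in mEpiSC, Six5 rose, and Hesx1 varied most between mEpiSC libraries. Their promoter sequences are given below, after those of 2 early Hox genes that were high in EpiSC7 and EpiSC9. They run 5′ to 3′ on the gene's strand, with CG dinucleotides in capitals.
Hoxb1: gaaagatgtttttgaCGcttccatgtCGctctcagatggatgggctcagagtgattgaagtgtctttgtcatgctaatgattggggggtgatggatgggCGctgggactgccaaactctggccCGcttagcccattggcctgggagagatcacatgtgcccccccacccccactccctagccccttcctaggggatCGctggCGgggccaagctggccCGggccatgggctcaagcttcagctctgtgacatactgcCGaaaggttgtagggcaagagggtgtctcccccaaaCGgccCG
Hoxa2: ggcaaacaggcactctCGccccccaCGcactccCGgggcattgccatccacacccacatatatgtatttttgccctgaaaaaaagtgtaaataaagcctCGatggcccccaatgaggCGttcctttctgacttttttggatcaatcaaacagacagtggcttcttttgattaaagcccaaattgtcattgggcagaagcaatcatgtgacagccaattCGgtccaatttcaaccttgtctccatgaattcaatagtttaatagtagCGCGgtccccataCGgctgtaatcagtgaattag
Six4: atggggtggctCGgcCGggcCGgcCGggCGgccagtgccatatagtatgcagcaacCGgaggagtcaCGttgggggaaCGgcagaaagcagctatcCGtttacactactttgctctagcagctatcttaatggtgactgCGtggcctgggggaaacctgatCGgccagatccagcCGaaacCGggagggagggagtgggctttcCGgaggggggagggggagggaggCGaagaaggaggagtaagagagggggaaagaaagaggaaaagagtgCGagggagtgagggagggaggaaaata
Six5: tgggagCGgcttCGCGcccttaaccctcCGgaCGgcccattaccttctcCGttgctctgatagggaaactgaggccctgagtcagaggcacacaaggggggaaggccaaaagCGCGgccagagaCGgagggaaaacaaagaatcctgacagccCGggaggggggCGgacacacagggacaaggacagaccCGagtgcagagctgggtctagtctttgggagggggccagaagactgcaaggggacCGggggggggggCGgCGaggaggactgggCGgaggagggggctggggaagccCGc
Hesx1: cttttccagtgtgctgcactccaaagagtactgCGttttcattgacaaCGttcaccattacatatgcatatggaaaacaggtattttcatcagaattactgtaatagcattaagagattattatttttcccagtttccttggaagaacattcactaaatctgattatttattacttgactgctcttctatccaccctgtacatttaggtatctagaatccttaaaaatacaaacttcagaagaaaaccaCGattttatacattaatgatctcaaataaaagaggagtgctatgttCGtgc
They lie at chr11:96365508-96365807 (plus strand, 10 CG), chr6:52164782-52165081 (minus, 9), chr12:73113196-73113495 (minus, 16), chr7:19094294-19094593 (plus, 17) and chr14:27000112-27000411 (plus, 4) of GRCm38.p6. The count of 4 in Hesx1, shared with Hoxa9, Hoxd4, Hoxd11 and Lhx8, was the lowest of the 69, and the GC content of the Hesx1 promoter was 33.7% against a median of 60%. The 8-base motif TGATTGAT, a form bound by Pbx with Hox partners, was searched on both strands; the Hoxa2 promoter held it, on the opposite strand and starting 111 bases before the start site. It was found in 1 of the 69 promoters (1.45%) and in 211 of 27025 (0.781%), and a match is not evidence of binding. Only that exact sequence was searched, so promoters with other forms of such a site were not counted.

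The vertebrate sine oculis genes, named after the Drosophila eye gene, split in direction. Six4, a regulator of muscle and sensory placodes on chromosome 12 (74201246 to 74214232), measured 3.37, 4.18, 4.06 and 2.86 FPKM in mEpiSC, against 17.2, 11.1, 13.3 and 9.04 FPKM in mESC. It was lower in every mEpiSC library than in any mESC library, with mESC 1 highest, and fell by 1.54 (SE 0.20; limma, adjusted p = 6.6e-04).

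Six2, Six3, Six5 and Six6 had higher means in mEpiSC, and 1 of them passed the test. Six5, a widely expressed member next to the myotonic dystrophy kinase gene, measured 3.96, 3.43, 4.05 and 4.02 FPKM in mEpiSC, against 0.875, 1.34, 0.932 and 1.08 FPKM in mESC. It rose by 1.25 (SE 0.13; limma, adjusted p = 3.0e-04), the lowest adjusted p of the set. Six2, of kidney progenitors, measured 2.33, 2.27, 0.970 and 1.31 FPKM in mEpiSC, against 0.109, 0.169, 0.103 and 0.269 FPKM in mESC, with no overlap, but reached 1 FPKM in too few libraries for the test. Its neighbour Six3, an eye and forebrain factor 58.1 kb away, measured 1.49, 0.0882, 1.40 and 0.00651 FPKM in mEpiSC, and at most 0.0285 FPKM in mESC. Six3 was therefore present in EpiSC5 and in 1 of the 2 EpiSC7 libraries. Six6, also of the eye, averaged 0.279 FPKM in mEpiSC and 0.00280 FPKM in mESC, and was silent by the rule used here.

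Iroquois genes lie in 2 clusters of 3 and act in early neural and heart patterning. In the cluster on chromosome 8, Irx3 measured 14.7, 5.79, 12.1 and 6.22 FPKM in mEpiSC, against 0.924, 2.74, 0.651 and 0.877 FPKM in mESC. Irx5 measured 4.32, 1.29, 4.09 and 1.87 FPKM in mEpiSC, against 0.451, 0.497, 0.255 and 0.208 FPKM in mESC. Both were higher without overlap, by 2.21 (SE 0.35; limma, adjusted p = 0.0017) and 1.44 (SE 0.28; adjusted p = 0.0042), and both were highest in mEpiSC 1 and 3. Irx5 entered the test only through mEpiSC, so its states could not overlap, and its call supports nothing by itself. The third gene of that cluster, Irx6, was silent and stayed at or below 0.0406 FPKM.

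In the cluster on chromosome 13, Irx1 measured 0.791, 1.18, 1.66 and 1.14 FPKM in mEpiSC, against 0.490, 0.197, 0.163 and 0.0966 FPKM in mESC, without overlap, and was not tested. Irx2 measured 0.497, 1.66, 2.91 and 2.21 FPKM in mEpiSC, against 0.440, 0.271, 1.14 and 0.926 FPKM in mESC. Its states overlapped through EpiSC5, and its difference of 0.68 (SE 0.30) had an adjusted p of 0.11. It passed with the replicate number as a block (limma, adjusted p = 0.037), without mEpiSC 1 (0.017), with 1 mean per line (0.022) and with the fibroblast markers as a covariate (0.048), but not with lines as a random block (0.22) or with voom (0.17). Irx4, a heart ventricle factor, was silent. So the chromosome 8 pair was high in EpiSC5, while the chromosome 13 pair was lowest there among the mEpiSC.

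Of the Pax genes, Pax3, a factor of the dorsal neural tube, neural crest and somites, was the one expressed in a state. It measured 1.02, 1.15, 1.75 and 1.42 FPKM in mEpiSC, against 0.0193, 0.115, 0.0538 and 0.0399 FPKM in mESC (1.13, SE 0.14; limma, adjusted p = 5.1e-04). Pax3 entered the test only through mEpiSC, so its states could not overlap, and its call supports nothing by itself. With a pseudocount of 0.1 the difference was 3.20. Its closest paralog Pax7 was silent yet did not overlap between states, with means of 0.342 FPKM in mEpiSC and 0.0265 FPKM in mESC. Pax6, the eye and forebrain factor, measured 0.184, 0.392, 1.91 and 0.371 FPKM in mEpiSC, against 0.293, 0.307, 1.36 and 1.64 FPKM in mESC. It was at 1 FPKM or more in mEpiSC 3 and in both ESF175/1 libraries. Pax2, Pax5 and Pax8, which share a subfamily and pattern the midbrain-hindbrain boundary, kidney and thyroid, reached at most 0.365, 0.182 and 0.887 FPKM. Pax1 and Pax9, of the vertebral column, reached 0.114 and 0.274 FPKM.

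Of the Nkx genes 3 were tested, and none passed. Nkx1-2, also called Sax1 and active near the primitive streak, measured 0.926, 1.88, 0.346 and 4.83 FPKM in mEpiSC, against 2.97, 16.0, 0.969 and 1.42 FPKM in mESC. The single high value was that of mESC 2 (difference −0.72, SE 0.69; limma, adjusted p = 0.45). Primitive streak markers were also highest of the mESC in that library, with a summed level over 8 genes of 152.3, 104.5, 57.0 and 57.0 FPKM in mEpiSC, against 5.99, 54.7, 4.28 and 6.01 FPKM in mESC. Of the 36 genes that were not silent, mESC 2 was the highest mESC library for 19. Among the early Hox genes and their partners, Hoxb1, Hoxb3, Meis2 and Meis3 stood far above the other mESC libraries there. The part of streak-like cells in this was not tested.

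The ventral neural tube factors Nkx2-2 and Nkx6-1 were near absent from mESC. Nkx2-2 measured 1.82, 0.245, 2.38 and 0.206 FPKM in mEpiSC, and 0.0368 to 0.0752 FPKM in mESC. Nkx6-1 measured 0.490, 1.39, 4.80 and 0.237 FPKM in mEpiSC, and at most 0.0845 FPKM in mESC. Neither overlapped between states, and for both mEpiSC 3 was the highest. Nkx2-9 and Nkx6-2 were also highest in mEpiSC 3, at 6.32 and 6.77 FPKM. Nkx2-9 measured 0.317, 0.599 and 1.16 FPKM in mEpiSC 1, 2 and 4, and 0.731 to 1.43 FPKM in mESC (0.16, SE 0.47; adjusted p = 0.82). Nkx6-2 measured 0.526, 0.785 and 2.73 FPKM in mEpiSC 1, 2 and 4, and 0.578 to 1.76 FPKM in mESC (0.53, SE 0.47; adjusted p = 0.41). The interval of Nkx6-2 overlaps that of Inpp5a, which measured 8.41, 8.10, 8.69 and 20.1 FPKM in mEpiSC and 5.89 to 11.3 FPKM in mESC, and the tables do not say how such reads were divided.

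Other Nkx genes leaned to mESC or to single libraries. Nkx2-4 reached 1.11 FPKM in mESC 4, and was at most 0.167 FPKM in mEpiSC and at least 0.205 FPKM in mESC. The foregut and heart factors Nkx2-1 and Nkx2-5 reached at most 0.0131 and 0.138 FPKM.

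Hesx1, a repressor needed for forebrain and pituitary, had the widest range within mEpiSC. It measured 26.97, 1.80, 10.7 and 1.14 FPKM in mEpiSC 1 to 4, and 2.85, 2.74, 2.47 and 1.79 FPKM in mESC 1 to 4. EpiSC5 and 1 library of EpiSC7 lay above all mESC, the other EpiSC7 library lay within their range and EpiSC9 lay below it (difference 0.95, SE 0.73; limma, adjusted p = 0.34). Of the Cdx genes, direct activators of Hox genes in the posterior body, Cdx1 measured 0.0225, 0.0134, 0 and 0.294 FPKM in mEpiSC, against 0.322, 1.62, 0.258 and 2.37 FPKM in mESC. Cdx2, also a trophoblast factor, reached 0.615 FPKM in mESC 2. Msx1, a BMP target, measured 1.33, 0.949, 0.936 and 0.272 FPKM in mEpiSC, against 0.627, 0.490, 0.172 and 0.167 FPKM in mESC. Its paralog Msx2 was silent, at most 0.662 FPKM.

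Read across the 5 lines, 8 genes chosen after their values were seen fell into 2 patterns, and other variable genes, such as Nkx6-1 and Nkx1-2, followed neither. In the first, Hoxa2, Hoxb1, Hoxb2, Hoxb3 and Meis1 were lowest of the mEpiSC in EpiSC5 and higher in EpiSC7 and EpiSC9. In the second, Hesx1, Six3 and Nkx2-2 were high in EpiSC5 and in mEpiSC 3 and low in mEpiSC 2 and EpiSC9, so the 2 libraries of EpiSC7 differed. In the test over the 3 mEpiSC lines, which takes 1 mean per line, 2.6% of all genes passed and 0 of the 21. At an unadjusted p under 0.05 there were 4 of the 21, against 2857 of all 11556 genes tested. The adjusted p of these 4 was 0.12 for Hesx1, 0.13 for Hoxb1, 0.072 for Hoxb2 and 0.11 for Irx2 (limma F test). EpiSC5 and EpiSC9 have 1 library each and were assumed to vary like the lines with 2, and the count over all genes ran from 25 to 2312 as single libraries were left out. One gene passed without mEpiSC 2 or without mEpiSC 3 (Hesx1), without mESC 1 (Hoxb1), and without mESC 3 or mESC 4 (Hoxb2).

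Between the mESC lines, ESF175/1 against ESF122, 0.762% of all genes passed and 0 of the 21 (limma, adjusted p under 0.05). An unadjusted p under 0.05 was found for 4 of the 21, against 1723 of all 11556 genes tested. The count over all genes, 88, ran from 13 to 1450 as single libraries were left out. The largest estimate was that of Nkx1-2, −1.91 (SE 0.70; adjusted p = 0.29), which rested on mESC 2. Tgif1 was at 0.46 (SE 0.15; adjusted p = 0.24).

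**Figure D5:**
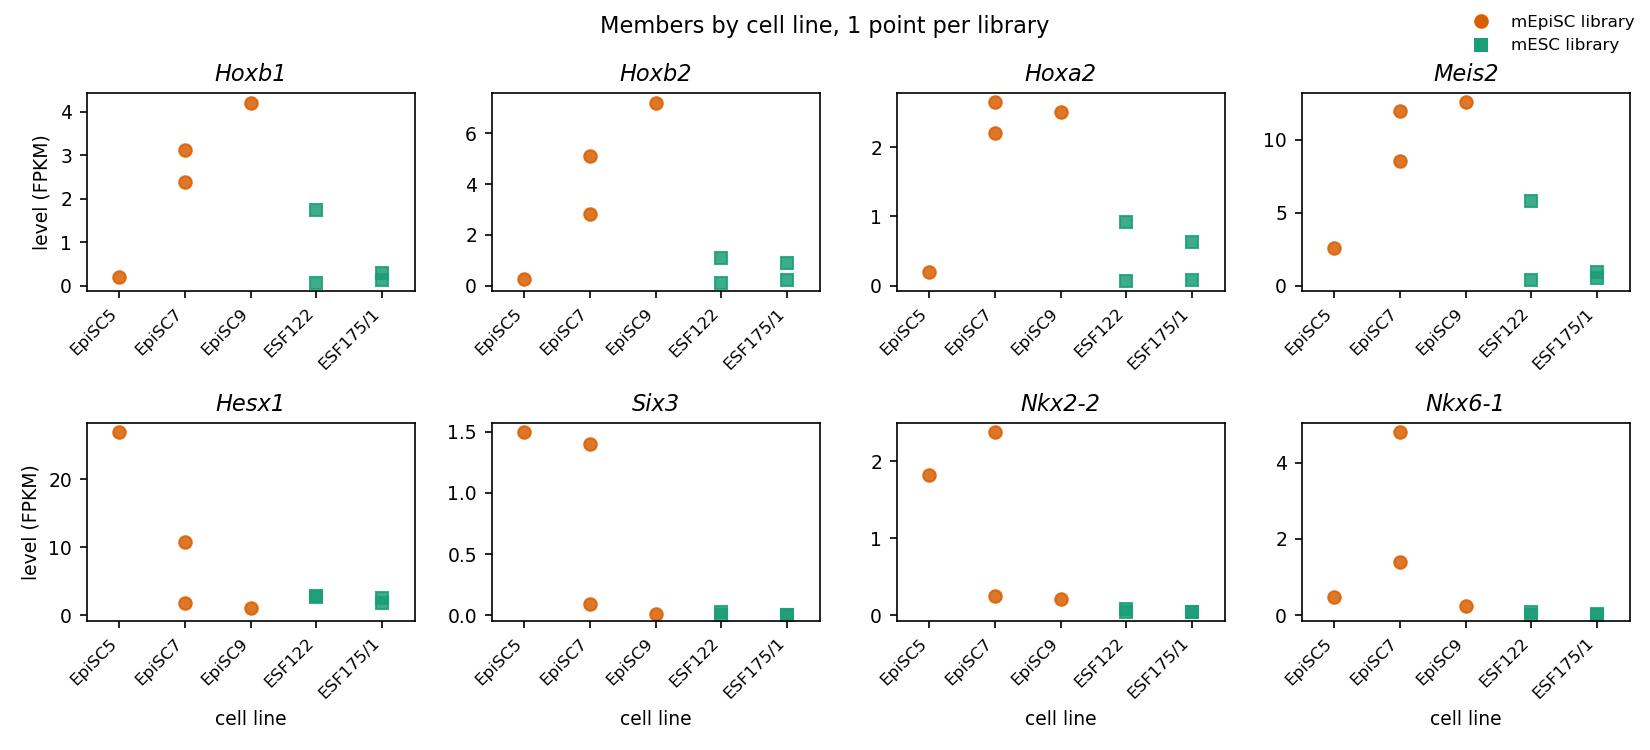
Level (y axis, FPKM) of 8 genes by cell line (x axis; mEpiSC lines left, mESC lines right), with 1 point per library. Hoxb1, Hoxb2, Hoxa2 and Meis2 are lowest of the mEpiSC lines in EpiSC5, whereas Hesx1, Six3 and Nkx2-2 are high in EpiSC5 and in 1 of the 2 EpiSC7 libraries, and Nkx6-1 is highest in EpiSC7.

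A pair of lists set these genes in context. Of 57 other homeobox genes, 15 were tested, with 7 higher and 1 lower in mEpiSC and a median difference of 1.26. The largest changes were those of Lhx1 (3.49, SE 0.85) and Gsc (3.22, SE 0.60), both organizer genes, Otx2 (2.07, SE 0.46), of the anterior epiblast, and En1 (1.90, SE 0.28), of the midbrain-hindbrain boundary (limma, adjusted p = 0.012, 0.0035, 0.0082 and 0.0013). En1 entered the test only through mEpiSC, so its states could not overlap, and its call supports nothing by itself. Lhx1 and Gsc are named here as genes outside the 103, and Pou5f1 and Nanog, which also carry homeodomains, did not pass. Of 26 genes of Polycomb complexes and their opposing demethylases, 24 were tested, with 4 higher, 8 lower and 12 not passing, and a median of −0.18.

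The Polycomb changes were in both directions. Phc2, a subunit of complex 1, averaged 31.9 ± 4.53 FPKM in mEpiSC and 7.75 ± 2.48 FPKM in mESC (1.94, SE 0.21; limma, adjusted p = 2.9e-04). Cbx7, which reads the methyl mark, averaged 13.4 ± 3.01 FPKM in mEpiSC and 36.9 ± 5.14 FPKM in mESC (−1.41, SE 0.17; adjusted p = 5.7e-04). Mtf2 and Eed, of complex 2, fell by 1.15 (SE 0.16) and 1.07 (SE 0.16), to 33.6 ± 4.95 and 35.5 ± 6.78 FPKM in mEpiSC, against 75.9 ± 12.2 and 75.5 ± 10.2 FPKM in mESC (adjusted p = 8.5e-04 and 0.0012). The catalytic subunit Ezh2 averaged 59.9 ± 4.53 FPKM in mEpiSC and 71.6 ± 15.5 FPKM in mESC (adjusted p = 0.26).

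Of 16 tested fibroblast markers 5 were higher in mEpiSC, none was lower and 11 did not pass. Over all genes tested 23.1% were higher and 14.2% lower. States did not overlap for 1 of the 16, and the summed level in mESC 1 (311.1 FPKM) was above that in mEpiSC 3 and 4 (196.7 and 83.4 FPKM). None of the 18 was listed at 0 except 1 in mESC 4. Of 6 tested primitive endoderm markers 6 were higher, of 4 trophoblast markers 1 was higher and 1 lower, of 3 neuroectoderm markers 1 was higher and 1 lower, and of 5 primitive streak markers 4 were higher. The primitive endoderm markers Gata6, Sox17 and Foxq1 entered the test only through mEpiSC, so they had to differ. With the fibroblast marker level as a covariate, all 11 genes called between states passed again. That level came from the same 8 libraries and varied both between the states and within them. The part of fibroblast RNA in these calls was not tested.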

How the data were processed

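Polyadenylated RNA of 8 libraries was prepared with an Illumina TruSeq kit, per the labels' protocols. For each gene the authors deposited an FPKM value with its 95% interval. Per the submitters' processing notes, TopHat2 2.0.6 and Cufflinks 2.0.2 were used with mm9. Which annotation and options were used, and whether strand was, is not given in the sources used here. There is 1 table per library, and 0 columns were left unused. Symbols at several loci (248 symbols, 712 entries) were left out. Positions are mm9 intervals of the tables with starts moved by 1 to count from 1.

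States were compared with limma 3.58.1 (trend and robust, statmod 1.5.0, R 4.3.3) on log2(FPKM + 1). Genes had to reach 1 FPKM in 4 or more libraries, with Benjamini-Hochberg adjustment over all of them. Lines were compared in a fit with 1 mean per line, whose error is the spread of libraries within lines. The fit was tested on simulated data. Genes to name were every one of the 103 with 1 FPKM or more in a library or past a test, and the 4 largest changes past the test in each of 2 other lists; Pknox1, Pknox2, Ezh2 and Inpp5a were chosen after their values were seen. Values of some of the 103 genes are not reported here. Members and lists were chosen with earlier results of these data known. Fragments were implied from interval widths (whole within 0.05 for 80.2% to 81.1% of genes under 100 fragments). Sequences are from RefSeq GRCm38.p6 (69 of 103 matched by symbol); shared 50-base windows were counted in GENCODE vM21 transcripts, where all 103 matched.

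Deviations from the state means of same-numbered libraries correlated across genes at 0.22, 0.15, 0.18 and 0.51, which met the bound of 0.1 for pairing, though no label states it; the fits have no replicate block, and a blocked fit was an alternative (the highest value with another number was 0.12, 0.21, 0.21 and −0.22, so numbers 2 and 3 were not the closest matches). Other settings were pseudocounts, filters, scalings, blocks, covariates, voom on implied fragments and leaving out libraries.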

Additional observations from a re-analysis of the deposited data

Results flagged for a closer look

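For 32 genes at 1 FPKM or more in a library, 64 sets of 4 values were screened for a value far from the other 3. The cutoff is meant to flag about 1 set in 20 when all 4 values come from a single normal distribution. These sets mix cell lines, and genes entered by reaching 1 FPKM in a library, so that rate is not a valid comparison here. Such values numbered 11. Of these, 6 were high values of mESC 2: Hoxb1 (1.75 FPKM, others 0.0556 to 0.295), Hoxb3 (0.832, others 0.131 to 0.190), Irx3 (2.74, others 0.651 to 0.924), Meis2 (5.81, others 0.374 to 0.927), Meis3 (2.66, others 0.646 to 0.935) and Nkx1-2 (16.0, others 0.969 to 2.97). In mEpiSC 4, Cdx1 was high (0.294 FPKM, others 0 to 0.0225). In mEpiSC 3, Nkx2-9 (6.32 FPKM, others 0.317 to 1.16) and Pax6 (1.91, others 0.184 to 0.392) were high. Nkx2-4 in mESC 4 was high at 1.11 FPKM (others 0.205 to 0.318), and Six5 in mEpiSC 2 was low at 3.43 FPKM (others 3.96 to 4.05).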

How the results depend on the processing

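Of the 11 calls among the 103 genes, all 11 were made again with pseudocounts of 0.1 and 5, both scalings, status OK in all libraries, no trend, the replicate block, 1 mean per line, the fibroblast covariate and without mESC 2. Meis2 lost its call with lines as a random block (log2 1.88), with voom on implied fragments (2.40, adjusted p = 0.062), with replicates 1 to 3 only (1.66, adjusted p = 0.10; chosen after the data were seen) and without 6 single libraries; its adjusted p ranged from 0.0049 to 0.10. Irx5 and Pax3 were no longer tested without any 1 mEpiSC library. The replicate block added Hoxb2 and Irx2 and changed no other call. With no filter 17 genes were higher and 6 lower, of 102 tested. Over all 19479 genes tested with no filter, 3285 were higher and 2204 lower. New calls numbered 12: Irx1, Meis1, Six2, Six6, Pax7, Pax9, Hoxc5 and Irx6 higher, and Lhx6, Hoxc13, Dlx4 and Irx4 lower. Some of these differences were small, such as 0.038 for Irx6, 0.080 for Hoxc5 and −0.081 for Irx4. With a mean of at least 5 FPKM, 5 of the genes were higher and 1 lower, of 9 tested. Leaving out single libraries gave 6 to 10 higher and 2 lower.

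Over all genes, 2665 were higher and 1640 lower (2140 and 2348 with median ratio scaling, 2187 and 2211 with quantile normalization); 1597 were higher with a mean of at least 5 FPKM, and 1046 and 1071 lower with the line as a random block and the fibroblast covariate. Without single libraries 1843 to 2543 were higher and 976 to 1945 lower (1031 without mESC 1, 976 without mESC 3). Differences between mESC lines numbered 88 (55 with a mean of at least 5 FPKM; chosen after the data were seen, 34, 30, 19, 13, 1450 and 49 without mEpiSC 2, mEpiSC 3 and mESC 1, 2, 3 and 4). Over mEpiSC lines they numbered 300 (185 and 566 with pseudocounts of 0.1 and 5, 466 with no filter, 159 with a mean of at least 5 FPKM, 196 with median ratio scaling; and 25, 33, 108, 97, 2305 and 2312 without the same libraries in turn). Genes of the 103 that differed over mEpiSC lines were 1 with a pseudocount of 5 (Hoxb2), 3 with no filter (Hoxa13 and Pax2 among them) and 0 to 1 without single libraries.

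Signs turned only for genes without a call. Pbx4 was at −0.059 and −0.15 with median ratio and quantile scaling, −0.054 with the fibroblast covariate, −0.018 with voom, −0.069 to 0.058 without single libraries (lowest without mESC 4) and −0.054 with replicates 1 to 3 only. Nkx2-9 was at −0.013 with quantile normalization and with 1 mean per line, −0.14 with voom and −0.38 to 0.45 without single libraries (lowest without mEpiSC 3). Tgif1 was at 0.0066 with the fibroblast covariate, 0.23 with voom, 0.18 with replicates 1 to 3 only and −0.12 to 0.094 without single libraries (above 0 without mEpiSC 4, mESC 3 or mESC 4). Tgif2 was at 0.082 with the fibroblast covariate. Pseudocounts moved the size of low genes most: Pax3 was at 3.20 and 0.32 and Irx5 at 2.62 and 0.54 with pseudocounts of 0.1 and 5, and at 4.07 and 2.86 with voom.

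At a level of 0.5 FPKM 16 genes were expressed in both states and 20 met neither rule, and 0 Msx and 1 Cdx gene were silent. At 5 FPKM 3 were expressed in both states, 5 in mEpiSC alone and 7 met neither rule, while silent genes numbered 4 in the sine oculis family, 5 Irx, 2 Msx, 1 Pbx and 10 Nkx. Without single libraries 67 to 68 were silent, 0 to 7 were expressed in mESC alone (values per library stand beside that count), 6 to 11 met neither rule (6 without mEpiSC 4 and 7 without mESC 1), and 1 to 2 Msx genes were silent (2 without mEpiSC 1). Without single libraries the rule asked for all but 1 of the libraries left in a state, a looser bar. The cause of the changes in these counts was not tested. Values under 0.1 FPKM rest on few fragments.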
